A study of Mus musculus with 6 samples.

Results

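The distal ends of the 19 mouse autosomes were taken as every 2 kb tile of chromosomes 1 to 19 whose start lies within 2 Mb of the largest end coordinate of its chromosome. The rule gave 19000 of the 1327469 tiles of the genome (1.43%), 1000 on each chromosome, and no measured value entered it. In 18812 of them at least 1 read was found in at least 1 library, and 188 were without reads in all 6 libraries and were left out of every level. Tiles 10 to 20 Mb from the same ends (95000, of which 93876 held reads) served as the comparison.

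Mouse embryonic stem cells (ESCs) grown in serum with LIF were profiled by ChIP-seq for 3 repressive histone marks, H3K9me2, H3K27me3 and H3K9me3, in 2 genotypes, with 1 library for each mark and genotype. Dicer KO ESCs (labelled Dicer -/-) lack the enzyme that cuts double-stranded RNA into small RNAs, and were made by constitutive CRISPR/Cas9 deletion in a line whose Dnmt1 alleles carry loxP sites. In Dicer KO/Dnmt1 cKO ESCs (labelled Dicer/Dnmt1 -/-) the maintenance DNA methyltransferase Dnmt1 had in addition been deleted by Cre induced with tamoxifen. Both genotypes therefore share the Dicer deletion, and ESCs with intact Dicer were not analysed here. The labels of these samples name the strain E14, whereas the methods of the study describe C57BL/6 ESCs, and the number of days after induction is not given in the labels. Since each genotype is a single library for a mark, genotypes were not compared by a test, and neither tiles nor chromosomes of a library are replicates of it.

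Mouse chromosomes are acrocentric: the centromere lies next to one telomere, so the distal end is the end far from the centromere and runs into the telomere of the long arm. Telomeres consist of tandem TTAGGG repeats, and the adjoining subtelomeric DNA holds degenerate repeats, duplicated segments and genes. H3K9me3 and H3K9me2 are marks of heterochromatin, H3K9me3 being known at telomeric and pericentromeric repeats, while H3K27me3 is laid down by Polycomb complexes over developmental genes.

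The NCBIM37 assembly ran into an array of the telomere repeat on 4 autosomes (2, 5, 11 and 18), with 91, 22, 29 and 75 copies of TTAGGG from the start of the array to the end of the chromosome. On none of the 19 autosomes did the assembly end in unknown bases. All 9 runs of at least 3 tandem copies in the last 10 kb of the autosomes read TTAGGG on the plus strand, toward the end, and 0 read CCCTAA. Searched on both strands, at least 3 tandem copies of TTAGGG started in 30 of the 19000 distal tiles (0.158%), in 37 tiles 10 to 20 Mb from the end (0.0390%) and in 379 tiles of the whole genome (0.0286%).

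From 250 bases before to 50 bases after the annotated start, the 513 starts of protein-coding genes in the distal ends held a median of 13 CG, against 12 over all 21418 autosomal starts. TTAGGG on either strand was found in 9.75% of the distal starts and in 10.3% of all.

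Apart from the repeats, the distal tiles differed little from the tiles 10 to 20 Mb away in base composition, with 42.6% GC against 43.4%. CG dinucleotides were fewer, 7.99 per kb against 10.1. Tiles with a gene start were 3.59% of the distal tiles and 2.80% of the others. The ends were unlike each other in gene content, from 3 protein-coding genes on chromosome 17 to 87 on chromosome 10. The share of tiles that overlap an annotated gene ran from 2.33% on chromosome 17 to 78.6% on chromosome 14.

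Library depth, as reads in tiles with the Dicer KO first, came to 16834940 and 20503709 (H3K9me2), 27162045 and 21280804 (H3K27me3) and 18155478 and 18931477 (H3K9me3). A median tile held between 13 and 18 reads. Further pairs of values keep this order of genotypes. A level below is the mean number of reads per tile divided by the mean over all autosomal tiles with reads of the same library. A change is the log2 of the Dicer KO/Dnmt1 cKO value over the Dicer KO value after division by library totals. Intervals are 95% intervals for counting error only, and copies made by PCR were not told apart from separate fragments, so the true uncertainty is larger. A region or gene is said to have risen or fallen where this interval of its change lay on one side of 0.

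The ends of chromosomes 14 and 17 lay beyond a step in level that all 6 libraries shared. At the end of chromosome 17 the level of H3K9me2 was 0.540 in the Dicer KO against 0.512 in Dicer KO/Dnmt1 cKO ESCs. H3K27me3 stood there at 0.369 and 0.381, and H3K9me3 at 0.498 and 0.481. At the end of chromosome 14 H3K9me2 stood at 1.56 and 1.52, H3K27me3 at 1.34 and 1.29, and H3K9me3 at 1.30 and 1.26. The shift was not confined to the last 2 Mb. On chromosome 17 the 10 Mb on the distal side of a point 21 Mb from the end held between 0.410 and 0.500 of the reads per tile of the 10 Mb on its other side, in every library. On chromosome 14 the same ratio at a point 31 Mb from the end lay between 1.598 and 1.719. The next largest shared step, on chromosome 11, was 1.24 to 1.37. These points were sought after the levels had been seen. The number of copies of these segments in the cells was not measured, and an input library was not analysed here. Within chromosome 17 the distal end and its own tiles 10 to 20 Mb away stood in the Dicer KO at a ratio of 1.03 (H3K9me2), 0.766 (H3K27me3) and 0.986 (H3K9me3), so comparisons within a chromosome are given beside the levels. Leaving out both chromosomes, an alternative chosen after seeing the data, gave Dicer KO levels relative to the comparison of 1.008 (H3K9me2), 1.008 (H3K27me3) and 0.974 (H3K9me3), against 1.014, 1.009 and 0.970 with them.

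**Figure D1:**
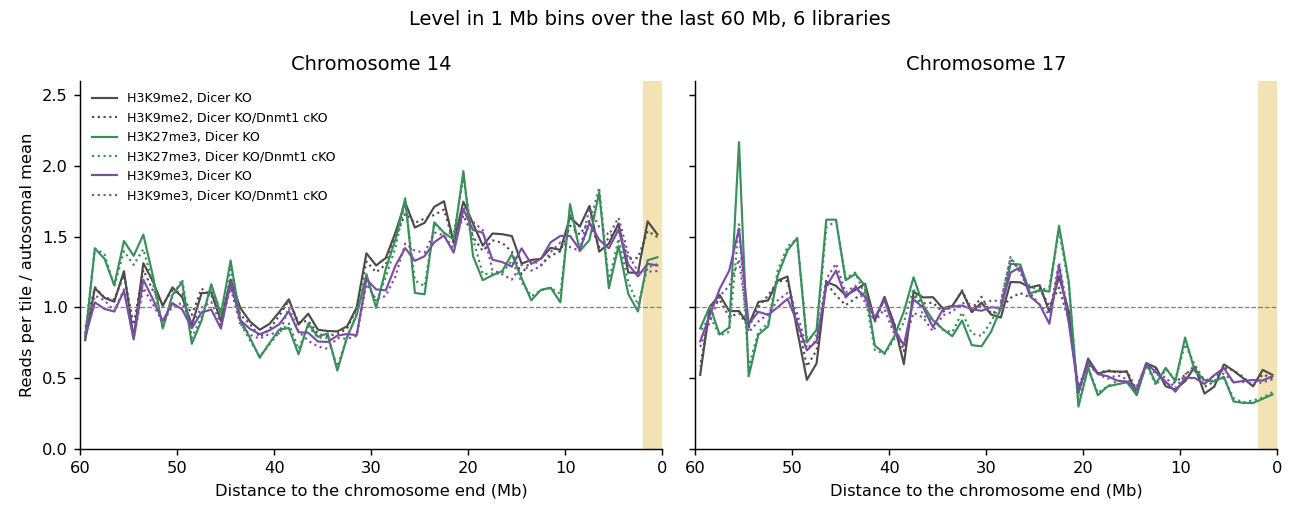
Level (reads per tile over the autosomal mean) in 1 Mb bins over the last part of chromosomes 14 and 17, against distance to the chromosome end in Mb; colours are the marks, solid lines the Dicer KO, dotted lines the Dicer KO/Dnmt1 cKO, and the shaded band is the distal 2 Mb. All 6 lines step up on chromosome 14 about 31 Mb from the end and step down on chromosome 17 about 21 Mb from the end.

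Summed over the 19 ends, the distal tiles carried each mark at nearly the level found 10 to 20 Mb away, and lost H3K27me3 and H3K9me3 relative to it upon Dnmt1 deletion. H3K9me2 stood at 13.7 reads per tile in the Dicer KO against 16.8 in Dicer KO/Dnmt1 cKO ESCs, levels of 0.987 and 0.996. H3K27me3 stood at 24.6 and 18.3 reads per tile, levels of 1.10 and 1.05. H3K9me3 stood at 13.8 and 14.2 reads per tile, levels of 0.929 and 0.911. Thus H3K27me3 was above the autosomal mean in both genotypes and H3K9me3 below it in both.

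Relative to the tiles 10 to 20 Mb from the end, H3K9me2 was 1.014-fold in the Dicer KO (1.010 to 1.018) against 1.017-fold in Dicer KO/Dnmt1 cKO ESCs (1.013 to 1.021). H3K27me3 went from 1.009-fold (1.006 to 1.012) to 0.952-fold (0.948 to 0.955). H3K9me3 went from 0.970-fold (0.966 to 0.974) to 0.931-fold (0.927 to 0.935). In sum the genotypes thus barely differed in the relative level of H3K9me2, whereas the relative levels of the other marks were lower without Dnmt1.

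H3K9me2 changed by 0.013 in the distal tiles, H3K27me3 by −0.073 and H3K9me3 by −0.026, against 0.0088, 0.011 and 0.033 in the tiles 10 to 20 Mb away. The distal change less the change of these tiles, which does not depend on how libraries are scaled, was 0.0044 for H3K9me2 (−0.0038 to 0.013), so no difference was detectable at this depth. It was −0.084 for H3K27me3 (−0.091 to −0.077) and −0.059 for H3K9me3 (−0.068 to −0.051). These are shifts of a few percent summed over many tiles, and how large they would be between libraries of the same genotype is unknown. The sign of the H3K9me2 change of the distal tiles alone depended on scaling, being −0.020 under a trimmed-mean scaling. The relative level of H3K27me3 in the Dicer KO, 1.009, was below 1 in 4 alternatives, among them the median of the 19 chromosomes (0.944) and removal of the Hoxc cluster and the Kcnq1 domain (0.994). H3K9me2 outside annotated genes was below the comparison in both genotypes (0.952 and 0.956). The H3K9me3 difference was −0.029 against all autosomal tiles over 2 Mb from the end and −0.036 as the median of the 19 chromosomes.

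The end next to the centromere, measured in the same way over the 2 Mb after the first tile with reads, was unlike the distal end in its levels. There H3K9me3 stood at 1.30-fold of the tiles 10 to 20 Mb from the distal end in the Dicer KO and H3K27me3 at 0.781-fold. In the Dicer KO the distal end thus held 0.747 times the H3K9me3 and 1.29 times the H3K27me3 of the centromere-proximal end. The H3K9me3 change of the centromere-proximal end was −0.0044 (−0.011 to 0.0023), which is −0.038 (−0.045 to −0.030) relative to the 0.033 of the comparison. The distal change of −0.026 lay below it by 0.022 (−0.032 to −0.011), so the size of the relative loss of H3K9me3 depended on the tiles compared. For H3K27me3 the centromere-proximal value was 0.024 (0.016 to 0.031), so the relative loss of this mark was not seen there.

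Nearest the end the marks parted, H3K9me3 standing above the comparison and the other marks below it. In the last 100 kb, 925 tiles with reads held 16566 H3K9me3 reads in the Dicer KO against 15980 in Dicer KO/Dnmt1 cKO ESCs. This was 1.26 times the comparison in the Dicer KO (1.24 to 1.27) against 1.13 times in Dicer KO/Dnmt1 cKO ESCs (1.12 to 1.15). The same 100 kb were low in the other marks. H3K9me2 stood at 0.858 and 0.865 of the comparison, and H3K27me3 at 0.705 and 0.695. Of the 19 chromosomes, 14 were above their own comparison for H3K9me3 in the Dicer KO against 11 in Dicer KO/Dnmt1 cKO ESCs. H3K9me2 was above it on 2 chromosomes and H3K27me3 on 3, in both genotypes.

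A pair of features therefore met at the last 100 kb, more H3K9me3 in both genotypes and less of it upon Dnmt1 deletion. The H3K9me3 change there was −0.15 relative to the comparison (−0.18 to −0.11). It was −0.085 from 100 to 250 kb, −0.072 from 250 to 500 kb, −0.063 from 500 kb to 1 Mb, and −0.071 from 1 to 1.5 Mb. From 1.5 to 2 Mb it was −0.0089 (−0.025 to 0.0070), and from 2 to 5 Mb 0.012. The relative loss of H3K9me3 was thus largest next to the end and was not detectable in the part of the 2 Mb farthest from the end. Tiles rich in H3K9me3 also fell in the comparison. At 2 to 4 times the mean the change was −0.16 in all distal tiles and −0.073 in the comparison, and at 4 or more times −0.30 and −0.20. The H3K9me3 level itself was at 1.04 of the comparison from 100 to 250 kb in the Dicer KO and at 0.936 to 0.955 in the bins from there to 2 Mb.

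H3K27me3 followed another course. Its relative level in the Dicer KO was 0.705 in the last 100 kb, 0.881 at 100 to 250 kb and 0.810 at 250 to 500 kb. It was 1.13 at 500 kb to 1 Mb, 0.989 at 1 to 1.5 Mb and 1.10 at 1.5 to 2 Mb. At 500 kb to 1 Mb, the bin of the Hoxc cluster, 8 of 19 chromosomes were above their own comparison, at a median ratio of 0.996. At 1.5 to 2 Mb 10 of 19 were above it, at a median of 1.25. The change relative to the comparison was −0.020 in the last 100 kb (−0.054 to 0.014), not detectable at this depth, and most negative, −0.13, at 500 kb to 1 Mb. Beyond the distal ends, at 2 to 5 Mb, it was −0.023 (−0.029 to −0.017). For H3K9me2 it was 0.027 at 1.5 to 2 Mb (0.012 to 0.043) and 0.030 at 2 to 5 Mb, and in the 5 bins nearer the end its intervals held 0. GC content was 40.8% in the last 100 kb and 44.2% at 1.5 to 2 Mb. The share of tiles that overlap an annotated gene was 39.7% and 54.9%. The part of GC and gene content in these courses was not tested.

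**Figure D2:**
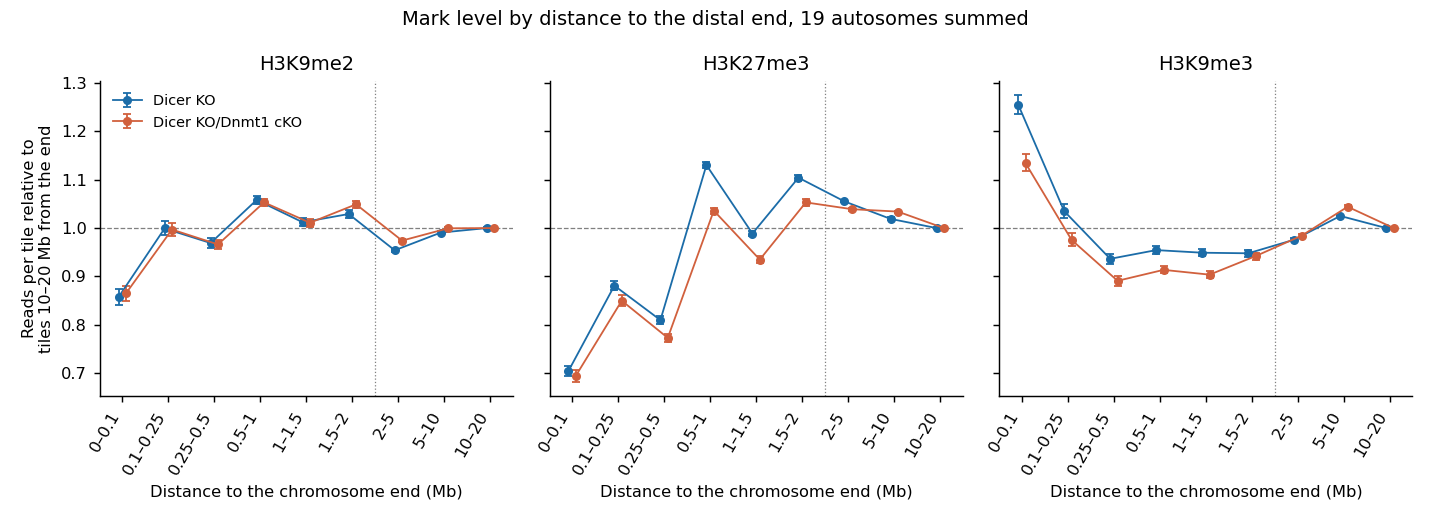
Reads per tile relative to tiles 10 to 20 Mb from the end (vertical axis) in bins of distance to the chromosome end in Mb, summed over 19 autosomes, with 95% counting intervals; blue is the Dicer KO, orange the Dicer KO/Dnmt1 cKO, and the dotted line marks 2 Mb. H3K9me3 is at 1.26 and 1.13 in the last 100 kb, where H3K27me3 is at 0.705 and 0.695.

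The last 5 tiles of each chromosome, singled out with the values known, showed the H3K9me3 peak at its sharpest. In these 95 tiles, of which 82 held reads, H3K9me3 was 2.41 times the comparison in the Dicer KO against 1.99 times in Dicer KO/Dnmt1 cKO ESCs, from 2815 and 2481 reads. Chromosome 13 decided much of this value, with 231, 220, 326 and 263 H3K9me3 reads in 4 of its last 5 tiles in the Dicer KO. These tiles were above their comparison in every mark: 15.3 and 13.4 times for H3K9me3, 2.94 and 3.09 times for H3K27me3, and 1.87 and 1.79 times for H3K9me2. Without this chromosome the values were 1.57 (1.496 to 1.646) and 1.26 (1.19 to 1.32). Of the 18 chromosomes with reads in these tiles, 14 were above their own comparison in the Dicer KO against 10 in Dicer KO/Dnmt1 cKO ESCs, and 15 of 18 had a lower change than their comparison. Without chromosome 13 the whole last 100 kb stood at 1.199 and 1.084, and without chromosomes 2 and 13 at 1.14 and 1.03. The last tile of each chromosome taken alone held 0.993 (0.872 to 1.127) and 0.749 (0.648 to 0.863) times the reads per tile of the comparison. These last tiles are all shorter than 2 kb (87 to 1856 bp where they held reads) but were counted as whole tiles. The values thus understate their level per base, which was not computed, and cannot show whether it lay above the comparison.

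The tile holding most of the TTAGGG array of chromosome 2 had 135 H3K9me3 reads in the Dicer KO against 99 in Dicer KO/Dnmt1 cKO ESCs. It had 22 and 28 reads of H3K9me2 and 33 and 19 of H3K27me3. The corresponding tile of chromosome 18 had 76 and 50 H3K9me3 reads, 6 and 17 of H3K9me2, and 5 and 7 of H3K27me3. The last tile of chromosome 5, shorter than 2 kb, had 26 and 18 H3K9me3 reads, and that of chromosome 11, also shorter, 30 and 25. In all 4 tiles H3K9me3 had more reads than either other mark in both genotypes, and fewer reads in the Dicer KO/Dnmt1 cKO than in the Dicer KO although its library was slightly larger.

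Over all 29 distal tiles with the repeat and with reads, the H3K9me3 level was 1.71 in the Dicer KO against 1.31 in Dicer KO/Dnmt1 cKO ESCs, from 738 and 592 reads. H3K9me3 fell in them, with a change of −0.38 (−0.53 to −0.22). H3K9me2 rose in them from 0.840 to 0.974 (337 and 476 reads), by 0.21 (0.012 to 0.42). The interval of this H3K9me2 change holds 0 under a trimmed-mean scaling, and also without the last 5 tiles (0.18, −0.032 to 0.40). H3K27me3 went from 0.916 to 0.909 (594 and 462 reads). The distal tiles without the repeat had H3K9me3 levels of 0.928 and 0.910, so the repeat tiles do not make up the distal values. In the 24 repeat tiles outside the last 5 tiles the H3K9me3 level relative to the comparison was 1.37 (1.25 to 1.502) and 1.09 (0.987 to 1.204). Repeat tiles elsewhere were high as well: over the 333 on autosomes outside the distal ends the level was 1.42 in the Dicer KO against 1.27 in Dicer KO/Dnmt1 cKO ESCs, with a change of −0.16 (−0.21 to −0.11). The authors kept only reads with a mapping quality of 20 or more, and what this removed from repeat tiles was not tested.

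Among the chromosomes, H3K9me2 at the distal end ranged from 0.754 of its own comparison on chromosome 11 to 1.23 on chromosome 1 in the Dicer KO, and was above it on 13 of 19 chromosomes (12 in the Dicer KO/Dnmt1 cKO). H3K27me3 ranged more widely, from 0.728 on chromosome 8 to 1.51 on chromosome 7, above its comparison on 8 of 19 chromosomes (7 in the Dicer KO/Dnmt1 cKO). H3K9me3 ranged from 0.743 on chromosome 15 to 1.07 on chromosome 16, above on 8 of 19 (4 in the Dicer KO/Dnmt1 cKO). No mark was thus raised or lowered at all ends.

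The order of the ends was nearly the same in both genotypes, with rank correlations of levels over the 19 ends of 0.951 (H3K9me2), 0.974 (H3K27me3) and 0.919 (H3K9me3), a description over points that share their libraries. H3K9me2 and H3K9me3 levels went together over the ends (0.819 in the Dicer KO), and H3K27me3 and H3K9me3 levels less so (0.0860 in the Dicer KO against 0.237 in Dicer KO/Dnmt1 cKO ESCs). Without chromosomes 14 and 17 the first value was 0.748 over 17 ends, and those of the second pair were −0.18 and 0.020.

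The ends richest in H3K27me3 were those of chromosomes 7, 15 and 2. On chromosome 7 the level was 1.84 in the Dicer KO against 1.59 in Dicer KO/Dnmt1 cKO ESCs, from 40977 and 27790 reads. On chromosome 15, home of the Hoxc cluster, the levels were 1.69 and 1.501, and on chromosome 2 they were 1.56 and 1.40. All 3 levels were lower without Dnmt1. The ends of chromosomes 8, 5, 11 and 18 were the poorest relative to their own interior, at 0.728, 0.740, 0.744 and 0.7503 in the Dicer KO.

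**Figure D3:**
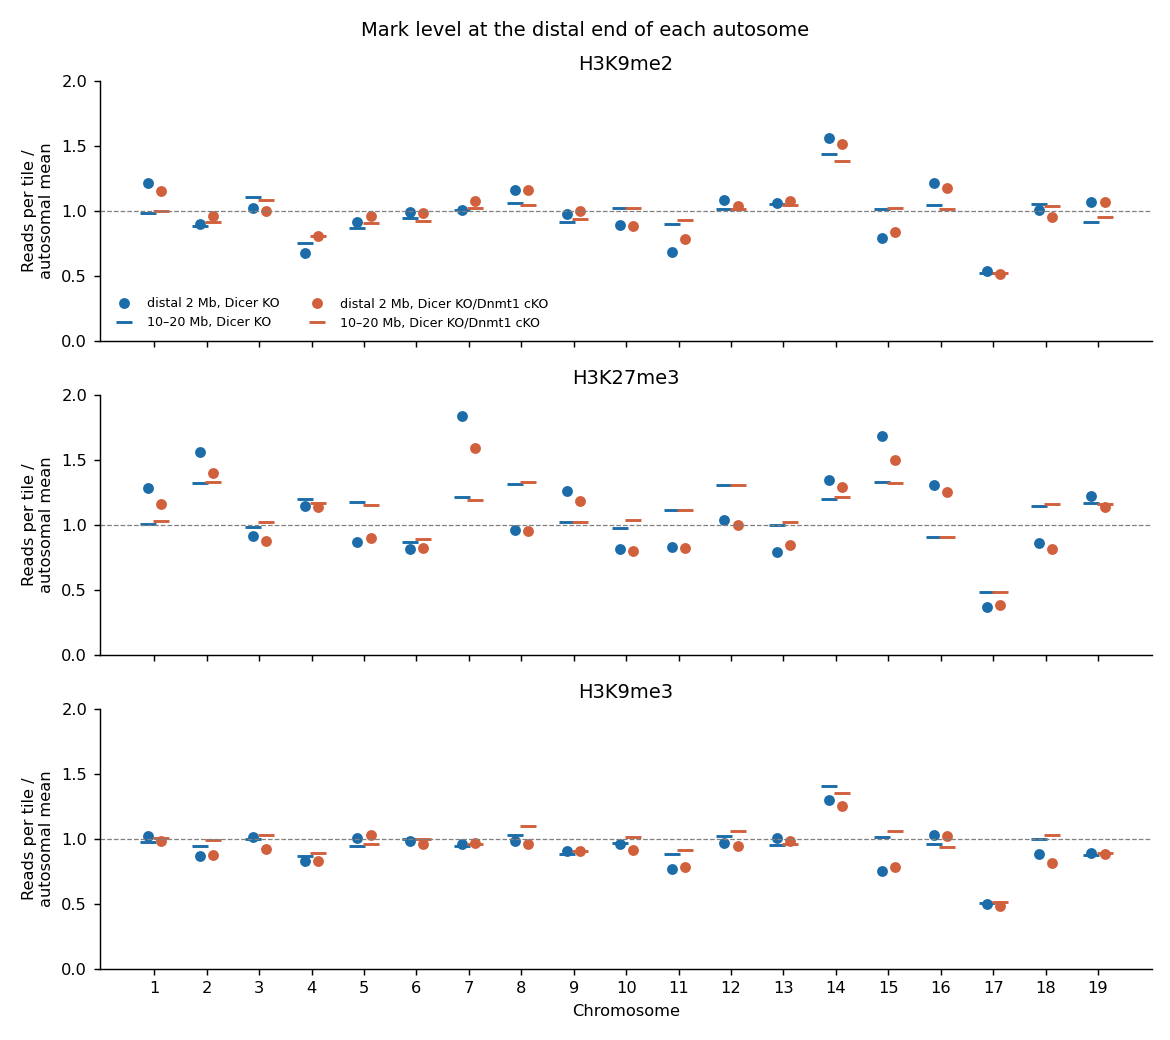
Level (reads per tile over the autosomal mean) of the 3 marks at the distal 2 Mb of each autosome (points) and 10 to 20 Mb from its end (dashes), blue for the Dicer KO and orange for the Dicer KO/Dnmt1 cKO, 1 library each. Chromosome 17 is lowest for all marks, chromosome 14 highest for H3K9me2 and H3K9me3, and chromosome 7 highest for H3K27me3 (1.84 and 1.59).

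The relative loss of H3K27me3 was spread over most ends. The change less that of the own comparison was below 0 on 15 of 19 chromosomes, with 12 intervals wholly below 0 and 3 wholly above. It was lowest on chromosomes 7 and 1 (−0.18 each), 2 (−0.17) and 15 (−0.16), and highest on chromosomes 5 (0.066) and 13 (0.061). For H3K9me3 it was below 0 on 17 of 19, with 9 intervals wholly below 0 and 0 wholly above. The H3K9me3 change of the ends themselves was below 0 on 12 of 19 (7 intervals below 0, 2 above), and that of the comparison was above 0 on 17 of 19. The lowest differences were those of chromosomes 3 (−0.17), 18 (−0.16), 10 (−0.14) and 8 (−0.13). Over the 19 ends the differences of H3K27me3 and H3K9me3 had a rank correlation of 0.20. For H3K9me2 the values lay on both sides, 10 above and 9 below 0 (4 intervals wholly above 0 and 5 wholly below), so opposite differences stood behind the sum near 0, from −0.086 on chromosome 1 to 0.15 on chromosomes 4 and 11. At the end of chromosome 4 the H3K9me2 level rose from 0.677 to 0.807, and at that of chromosome 11 from 0.680 to 0.781. Tiles at 0.5 to 1 times the mean of this mark changed by 0.086 in all distal tiles and by 0.11 in the comparison.

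The negative differences of H3K27me3 and H3K9me3 did not rest on any single chromosome. Leaving out each chromosome in turn gave differences from −0.092 to −0.074 for H3K27me3, from −0.064 to −0.053 for H3K9me3, and from −0.0013 (without chromosome 4, below 0) to 0.010 for H3K9me2. Leaving out chromosome 7 took the relative level of H3K27me3 in the Dicer KO from 1.009 to 0.977. The changes of H3K9me2 and H3K9me3 went with the GC content of the ends (rank correlations over 19 ends of 0.758 and 0.811), that of H3K27me3 less so (−0.425). Compared within 9 bins of GC content, the difference was negative in every bin for H3K27me3 (−0.15 to −0.032) and for H3K9me3 (−0.073 to −0.0082), and between −0.021 and 0.029 for H3K9me2. In the bin below 38% GC, with 21.9% of the distal tiles, the H3K9me3 interval held 0 (−0.027 to 0.011).

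**Figure D4:**
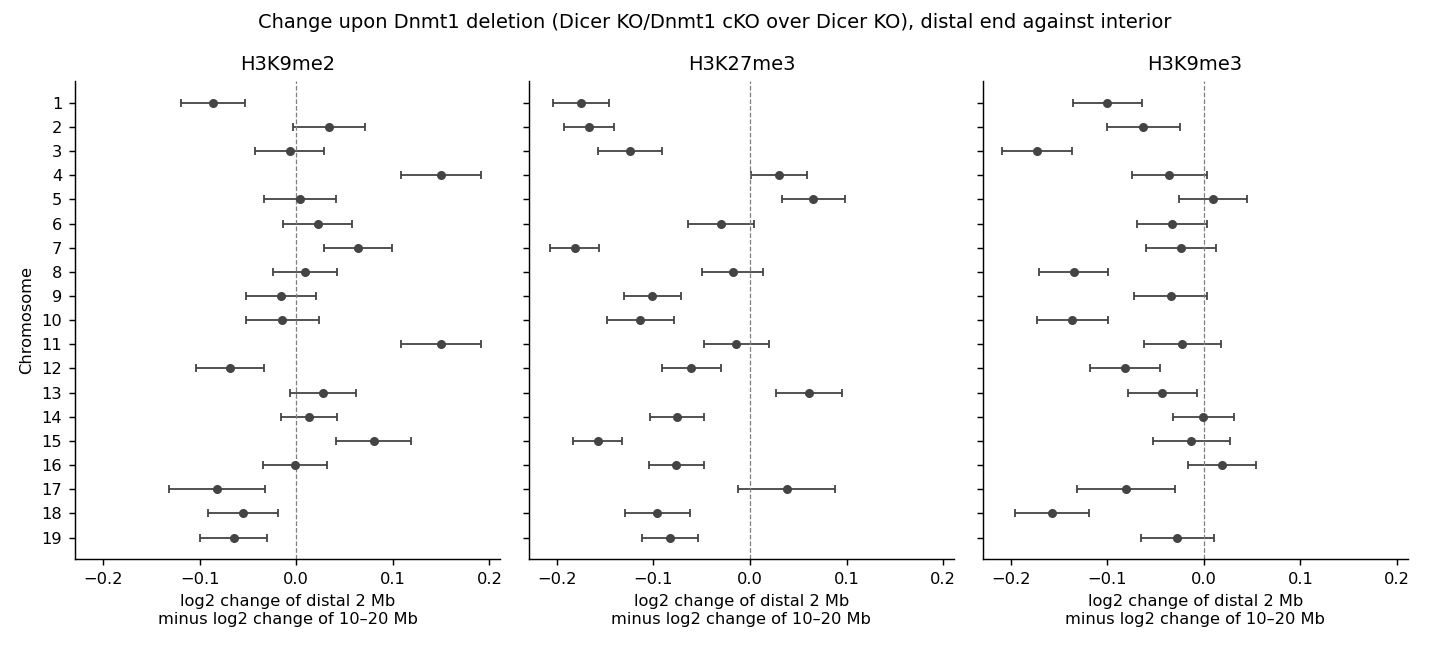
Change upon Dnmt1 deletion at the distal 2 Mb less the change 10 to 20 Mb from the end of the same chromosome (log2, horizontal axis) for each autosome, with 95% counting intervals. H3K27me3 is below 0 on 15 and H3K9me3 on 17 of 19 chromosomes, and H3K9me2 lies on both sides.

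The H3K27me3 difference was negative at gene starts, in gene bodies and outside genes. Tiles with a gene start (676) went from a level of 1.37 to 1.18, against 1.19 to 1.09 in the comparison, a difference of changes of −0.095. In gene bodies the difference was −0.093 and outside genes −0.076. For H3K9me3 the 3 differences were −0.083, −0.064 and −0.057. By the level of the tile in both libraries, the H3K27me3 difference was −0.12 in tiles with 2 to 4 times the mean, −0.081 in those with 1 to 2 times, and −0.042 in both classes below. In the 168 tiles with at least 4 times the mean it was −0.0090 (−0.046 to 0.028). These richest tiles fell by 0.42 in the distal ends and by 0.41 in the comparison. The loss in the richest tiles was thus not particular to the ends. Tiles with 2 to 4 times the mean changed by −0.18 in the distal ends and by −0.055 in the comparison. Those with 1 to 2 times changed by −0.069 and 0.012. In the classes below the changes were above 0 in both, 0.025 and 0.067 at 0.5 to 1 times and 0.17 and 0.21 below 0.5.

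The distal ends held more of these rich H3K27me3 tiles. At least 4 times the autosomal mean was reached by 252 of 18812 distal tiles in the Dicer KO (1.34%, against 0.53% of all autosomal tiles and 0.602% of the comparison). In the Dicer KO/Dnmt1 cKO it was reached by 122 (0.649%, against 0.247% and 0.300%). For H3K9me3 the numbers were 37 tiles in the Dicer KO (0.197%, against 0.121% of all) against 18 in Dicer KO/Dnmt1 cKO ESCs (0.0957%, against 0.063%). For H3K9me2 there were 3 such tiles in the Dicer KO (0.0159%, against 0.0223% of all and 0.00106% of the comparison) and 2 in Dicer KO/Dnmt1 cKO ESCs (0.0106%, against 0.0198% and 0%).

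Single tiles changed at least 2-fold about as often as among all autosomal tiles, for each mark. Among 13781 distal tiles with a mean of at least 10 H3K9me3 reads, 506 were lower at least 2-fold (3.67%, against 3.26% of all autosomal tiles and 2.66% of the comparison), and 432 were higher (3.14%, against 3.3% and 3.70%). For H3K27me3, 313 of 13964 were lower (2.24%, against 2.32% and 1.90%) and 362 higher (2.59%, against 2.9% and 2.66%). For H3K9me2, 315 of 13974 were lower (2.25%, against 2.62% and 2.52%) and 469 higher (3.36%, against 3.39% and 3.55%). Except for the terminal tiles described above, no single tile is named.

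Of the protein-coding genes, 510 lay with all their tiles in the distal ends and held reads. Compared were those with 200 or more reads of a mark summed over both libraries. For H3K27me3 these were 246, and 99 of them were higher in the Dicer KO/Dnmt1 cKO (40.2%, against 57.9% of all autosomal genes), 23 with an interval above 0 (9.35%, against 22.5% of all), while 73 had an interval below 0 (29.7%, against 14.4% of all). For H3K9me2 129 of 195 were higher (66.2%, against 70.6%), and for H3K9me3 95 of 203 (46.8%, against 60.9%). Intervals lay above 0 for 13 H3K9me3 genes (6.40%, against 10.5% of all) and below 0 for 9 (4.43%, against 3.83%). By interval 13 distal genes thus rose and 9 fell in this mark, while 108 of the 203 had a change below 0 and the median change was −0.015. A smaller share rose than among all autosomal genes. For H3K9me2 intervals lay above 0 for 29 (14.9%, against 23.3%) and below for 8 (4.10%, against 4.46%). None of the compared distal genes changed 2-fold for any mark. Over all compared autosomal genes the shares higher at least 2-fold were 0.00999% (H3K9me2), 0% (H3K27me3) and 0% (H3K9me3), and the shares lower 0%, 0.132% and 0.00981%.

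The direction of the H3K27me3 change went with its level. Of the 34 distal genes at 3 or more times the mean 33 were lower without Dnmt1, at a median change of −0.38. Of the 621 autosomal genes at such levels 583 were lower, at a median of −0.39. Genes at 1 to 3 times the mean were lower in 83 of 113 distal cases (73.5%) and in 60.1% of all, and genes below the mean in 31 of 99 (31.3%) and in 19.3% of all. Loss at the genes richest in H3K27me3 was thus shared with the whole genome.

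The Hoxc cluster, homeobox genes that pattern the body axis, was the densest H3K27me3 region of the distal ends. It lies inside the stretch between 500 and 800 kb from the end of chromosome 15. All 9 members fell (14.4% of all compared autosomal genes did), at a median level of 6.11 in the Dicer KO against 4.44 in Dicer KO/Dnmt1 cKO ESCs. Their median change of −0.38 was near the −0.39 of all autosomal genes at 3 or more times the mean. Hoxc12 held 319 and 201 reads (levels of 7.13 and 5.74), and Hoxc8 487 and 278 (7.26 and 5.29).

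Of 33 listed developmental transcription factors 17 lay in the distal ends, 9 of them the Hoxc genes, and 16 of the 17 had less H3K27me3 without Dnmt1, 14 with an interval below 0. This is near the 93.9% of all autosomal genes at 3 or more times the mean that were lower, and 14.4% of all compared genes had an interval below 0. Sp4, Prdm16 and Myt1, on the list as well, stood below 3 times the mean (0.618, 1.32 and 2.01 in the Dicer KO). Sp8, a zinc finger factor of limb and brain development on chromosome 12, had 654 and 332 reads in the respective genotypes and fell by 0.63 (−0.82 to −0.44). Hes5, a Notch target that represses neuronal differentiation, had 273 and 129 reads and fell by 0.73 (−1.03 to −0.43). Sox18, a factor of vascular endothelium, had 297 and 158 reads and a change of −0.56 (−0.84 to −0.28). Gata5, a factor of endoderm and heart, held 511 and 335 reads, and Emx2, a homeobox gene of the forebrain, 501 and 328, with a change of −0.26 each. Prdm16, known from brown fat and blood stem cells, was the exception: a long gene on chromosome 4 at levels of 1.32 and 1.45, it had 4743 and 4088 reads and rose by 0.14 (0.077 to 0.20). Bhlhe23, a basic helix-loop-helix factor of neurons on chromosome 2, was not on that list but among the 3 genes with enough reads that ranked highest by the mean H3K27me3 level of both genotypes, at levels of 6.73 and 5.68 and a change of −0.25 (−0.50 to 0.013).

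The Kcnq1 imprinted domain reaches into the distal 2 Mb of chromosome 7 with 11 annotated entries, 10 of them with enough reads, of which 8 were lower without Dnmt1 (42.1% of all autosomal genes were) and 5 fell (14.4% of all). These shares are not matched for level. By the mean of both genotypes Cdkn1c and Phlda2 stood above 3 times the mean, where 93.9% of all autosomal genes were lower. Slc22a18, Osbpl5 and Tnfrsf26 stood at 1 to 3 times, where 60.1% were lower, and the others below the mean, where 19.3% were. Cars, a cysteinyl-tRNA synthetase gene, rose by 0.39 (137 and 141 reads, 0.054 to 0.73). Cdkn1c, the imprinted cell cycle inhibitor p57, went from 347 to 151 H3K27me3 reads and had the lowest change of the distal genes with enough reads, −0.85 (−1.12 to −0.57), followed by its neighbour Phlda2, a gene that restrains growth of the placenta, with 263 and 122 reads and −0.76 (−1.07 to −0.45).

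Fgf3 and Fgf15, growth factor genes on chromosome 7 with Fgf4 between them, carried 541 and 295 H3K27me3 reads in the Dicer KO and 311 and 167 in Dicer KO/Dnmt1 cKO ESCs. Both fell, by 0.45 and 0.47. Fgf10, which drives the budding of limb and lung, did not change detectably (1386 and 1105 reads, 0.025, −0.089 to 0.14), and Fgf14, the last gene of chromosome 14, fell by 0.070 (10983 and 8196 reads). Fgf4, expressed in ESCs, held 93 and 65 reads and was not compared.

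**Figure D5:**
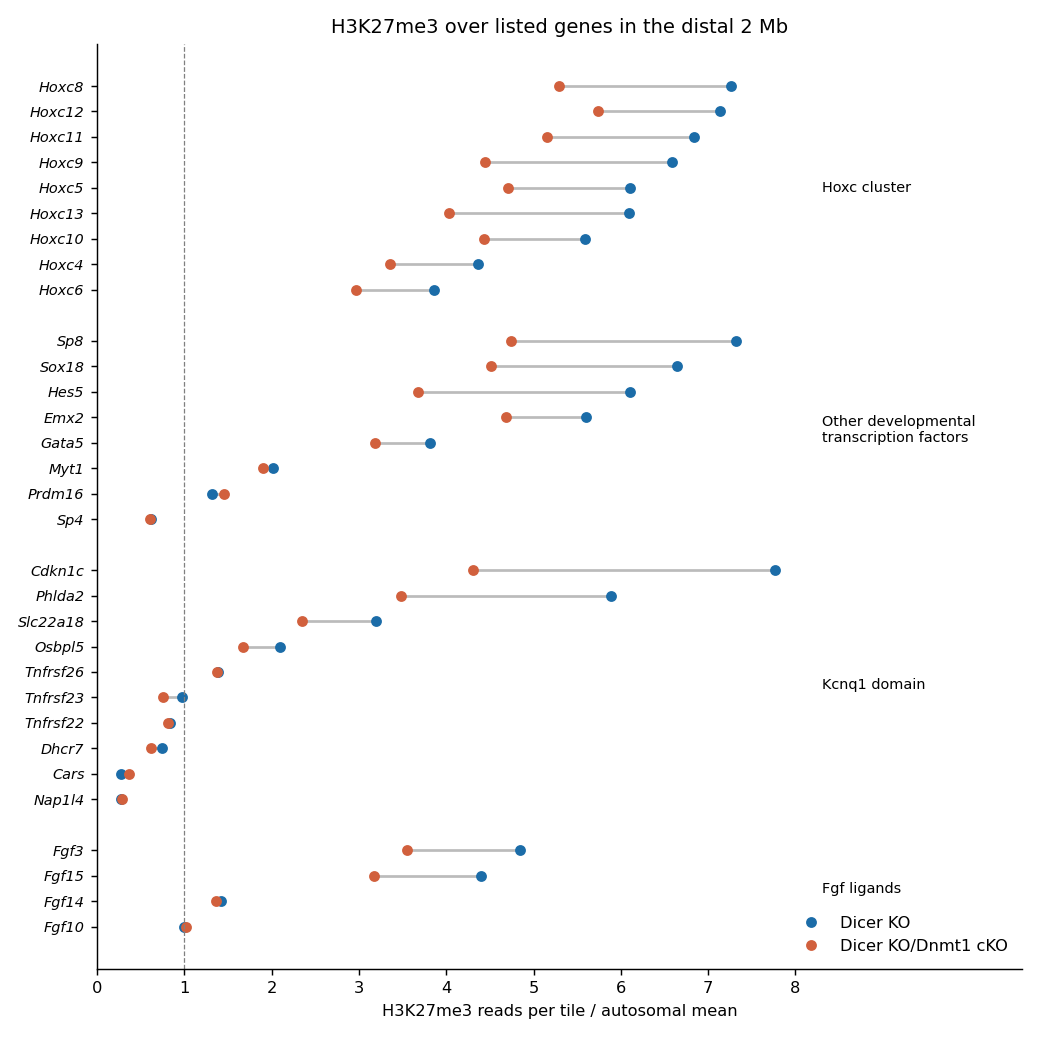
H3K27me3 level (reads per tile over the autosomal mean, 1 library per genotype) of listed genes in the distal 2 Mb with at least 200 reads, blue for the Dicer KO and orange for the Dicer KO/Dnmt1 cKO, joined by a line for each gene. All 9 Hoxc genes and most other genes of high level stand further left in the Dicer KO/Dnmt1 cKO, Cdkn1c moving from 7.76 to 4.31.

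Of the distal genes below the mean level of H3K27me3, 68 of 99 were higher without Dnmt1. Of 39 listed widely expressed genes 26 lay in the distal ends, at a median level of 0.282 in the Dicer KO against 0.335 in Dicer KO/Dnmt1 cKO ESCs, and of the 9 with enough reads 2 were lower, 7 higher and 3 rose (22.5% of all compared genes did). Of all autosomal genes below the mean 19.3% were lower, so these genes did not stand out from others of low level. Among distal genes with enough reads the largest rises were those of Cttn, which encodes the actin-binding cortactin (91 and 118 reads, 0.73, 0.33 to 1.12), Ankrd13c (128 and 158 reads, 0.66, 0.32 to 0.99) and Nnt, a mitochondrial transhydrogenase (199 and 244 reads, 0.65, 0.38 to 0.92). All 3 stood below 0.40 of the autosomal mean in both genotypes.

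Among genes with enough reads, ranked by the mean level of both genotypes, H3K9me2 was highest over the keratin genes Krt4 and Krt78 (levels of 1.77 and 1.62 in the Dicer KO, 1.81 and 1.84 in Dicer KO/Dnmt1 cKO ESCs) and over Tmtc4 on chromosome 14 (1.70 and 1.62). It rose most at genes of chromosomes 4 and 11: Arhgef16 had 77 and 153 reads (0.71, 0.31 to 1.10). Aatk, a kinase of the nervous system, had 120 and 224 (0.62, 0.30 to 0.94), and Ssu72, a phosphatase of RNA polymerase, 84 and 145 (0.50, 0.12 to 0.89). All 3 started from levels under 0.50. Of the compared distal genes below the mean level of H3K9me2, 93 of 114 were higher without Dnmt1, at a median change of 0.15. Of all such autosomal genes 5264 of 6221 were, at a median of 0.17, so gain at low levels was shared with the whole genome. The lowest H3K9me2 change among distal genes with enough reads was that of Ccr3, a chemokine receptor near the end of chromosome 9, with 109 and 95 reads (−0.48, −0.88 to −0.086). Pcmtd2 (115 and 116 reads, −0.27, −0.64 to 0.10) and Krt74 (111 and 113 reads, −0.26, −0.64 to 0.12) came next, with intervals that hold 0.

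Ranked in the same way, H3K9me3 was highest by far over the last genes of chromosome 13. 3110070M22Rik, covered by 1 tile, had 263 and 213 reads at levels of 17.6 and 13.7, and fell by 0.36 (−0.63 to −0.10). Gm7120, which ends 35 bp from the end of the assembly, had 501 and 486 reads at levels of 11.2 and 10.4, with a change of −0.10 (−0.28 to 0.076). Its levels of H3K27me3 were 2.79 and 3.08 and those of H3K9me2 2.12 and 1.84. Both genes lie within the last 5 tiles of that chromosome. Zfp445, a KRAB zinc finger gene on chromosome 9 known for keeping imprints, came next by the mean of both genotypes, at 2.40 and 2.25. Pank4, of the pantothenate kinase family, was higher in the Dicer KO (2.56 and 1.86) and fell by 0.46 (344 and 261 reads, −0.69 to −0.23). Slc17a9, a vesicular nucleotide transporter, had 118 and 94 reads (−0.39, −0.78 to 0.0025). The 3 largest rises of H3K9me3 among genes with enough reads were at C030017K20Rik (77 and 125 reads, 0.64, 0.23 to 1.05), Krt2 (79 and 121 reads, 0.55, 0.15 to 0.96) and Col9a3, a collagen of cartilage (125 and 179 reads, 0.46, 0.13 to 0.79).

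The last protein-coding gene of a chromosome lay between 35 bp (Gm7120) and 192523 bp (Cr2, a complement receptor, on chromosome 1) from the end. Wls, needed for secretion of Wnt proteins, ends 986 bp from the end of chromosome 3 and had 826 and 781 H3K9me3 reads (−0.14). Bicd1, an adaptor for dynein, ends 5186 bp from the end of chromosome 6, had 905 and 1004 H3K9me3 reads (0.089, −0.040 to 0.22) and rose by 0.37 in H3K27me3 (763 and 770 reads). Tmem196, 351 bp from the end of chromosome 12, had 449 and 419 H3K9me3 reads (−0.16, −0.35 to 0.032). Genes this close to the end were thus not all high in H3K9me3: the levels of Wls and Bicd1 were 1.13 and 0.778 in the Dicer KO.

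The distal keratin and olfactory receptor genes lie on 1 chromosome each, 15 and 10, so their medians describe single regions. The 16 keratin genes (of 100 in the genome) had median H3K27me3 levels of 2.68 in the Dicer KO against 2.49 in Dicer KO/Dnmt1 cKO ESCs, median H3K9me2 levels of 1.43 and 1.34, and median H3K9me3 levels of 1.075 and 1.185. The 57 distal olfactory receptor genes (of 1104) had median levels in H3K9me2 of 1.09 and 1.01, in H3K27me3 of 0.984 and 0.913 and in H3K9me3 of 0.872 and 0.771, each gene with too few reads to be compared. The 8 genes named Zfp (of 365) had a median H3K9me3 level of 0.570 and 0.603.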

How the data were processed

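H3K9me2, H3K27me3 and H3K9me3 ChIP-seq of Dicer KO and Dicer KO/Dnmt1 cKO ESCs was analysed, 6 libraries, 1 for each mark and genotype. The authors mapped reads to NCBIM37 (Bowtie in the labels, Bowtie2 in the methods), dropped those with a mapping quality under 20, and deposited, for tiles of 2 kb (1 kb in the methods), the log2 of reads observed relative to reads expected. Removal of duplicate reads is not stated for ChIP-seq. The table held 25 value columns, of which 6 were used and 19 were not, since the labels of these samples do not cover them. Taken out of log2, values were whole multiples of 1 step per library (at most 1 value per library lay over 0.1 reads from a whole number), and tiles at the floor of 0.9 of a step were taken as 0 reads. Chromosome lengths equalled those of the reference for 22 of 22 chromosomes. Genes came from GENCODE (37310, of which 22380 protein-coding).

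Levels and changes were ratios of summed reads with 95% intervals for counting error (exact binomial for level ratios, normal on the log2 scale for changes), and single-tile ratios used a pseudocount of 0.5 reads. No test was made, since each group is 1 library. Genes were named by rule: among protein-coding genes wholly in the window with at least 200 reads of a mark, the 3 of highest mean level over both genotypes, the 3 of highest and the 3 of lowest change, the last gene of each chromosome, and members of fixed lists (Hoxc, developmental transcription factors, Kcnq1 domain, Fgf ligands, widely expressed, Olfr, Zfp and Krt genes). Members and lists were chosen with earlier results of these data known. The terminal tiles described were picked with values known. Values of some genes the rule names are not given.

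Alternatives were a window of 1 Mb, all autosomal tiles over 2 Mb from the end as comparison, the median of 19 chromosomes, omission of the 0.1% of tiles with most reads, a mean of at least 10 reads, comparison within GC bins, tiles outside genes, a median and a trimmed-mean (TMM-type) scaling, and others chosen after seeing the data. Python 3.11.15, numpy 2.4.6, pandas 2.3.3, scipy 1.17.1 and matplotlib 3.10.9 were used, and the scripts were tested on simulated data.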

Additional observations from a re-analysis of the deposited data

How the results depend on the processing

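No paired analysis was possible because there was 1 library per mark and genotype and every replicate number was 1. In all 102 alternative values of 15 results were computed, of which 40 stayed within the counting interval of the reported value, 52 left it and 10 changed sides. Of the 52, 1 also changed sign, the H3K9me2 difference with a window of 1 Mb, whose reported interval holds 0. Of them 69 followed alternatives set in the design and 33 were chosen after seeing the data, namely leaving out chromosomes 14 and 17, leaving out the Hoxc cluster and the Kcnq1 domain, comparison within bins of the level of the mark, and all alternatives for the last 100 kb. Values are given as the relative level in the Dicer KO, that in Dicer KO/Dnmt1 cKO ESCs, then the difference of changes (log2). For each shift, the cause was not tested.

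With a window of 1 Mb, H3K9me2 was at 1.007 and 1.004 with a difference of −0.0043, H3K27me3 at 0.971 (from above to below 1) and 0.909 with −0.096, and H3K9me3 at 0.992 and 0.939 with −0.079. Against all autosomal tiles over 2 Mb from the end, H3K9me2 was at 0.987 and 0.996, both now below 1, H3K27me3 at 1.10 and 1.05, the latter now above 1, with −0.075, and H3K9me3 at 0.928 and 0.909 with −0.029. As the median of 19 chromosomes, H3K9me2 was at 1.034 and 1.044, H3K27me3 at 0.944 (now below 1) and 0.925 with −0.076, and H3K9me3 at 0.986 in the Dicer KO with −0.036. Without the 0.1% of tiles with most reads, H3K27me3 was at 1.003 and 0.947 and H3K9me3 at 0.964 and 0.926.

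Among tiles averaging 10 or more reads, H3K9me2 was at 1.022 and 1.029, H3K27me3 at 1.039 and 0.976, and H3K9me3 at 0.987 and 0.944. Within GC bins, H3K9me2 was at 1.008 in the Dicer KO, H3K27me3 at 1.038 and 0.979, and H3K9me3 at 0.939 in the Dicer KO/Dnmt1 cKO with −0.050. Outside annotated genes, H3K9me2 was at 0.952 and 0.956, both now below 1, H3K27me3 at 0.966 (now below 1) and 0.916 with −0.076, and H3K9me3 at 0.936 and 0.899. Without chromosomes 14 and 17, H3K9me2 was at 1.008 and 1.012. Without the Hoxc cluster and the Kcnq1 domain, H3K27me3 was at 0.994 (now below 1) and 0.942 with −0.077. Within bins of its own level, the H3K27me3 difference was −0.075.

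For H3K9me3 in the last 100 kb, omission of the last 5 tiles gave 1.143 and 1.051, omission of the 0.1% of tiles with most reads 1.128 and 1.029, the median of 19 chromosomes 1.205 and 1.057, and GC bins 1.156 in the Dicer KO/Dnmt1 cKO. Of the changes of the distal tiles themselves, that of H3K9me2 was −0.020 under trimmed-mean scaling (from above to below 0), that of H3K27me3 −0.10 under the same scaling, and that of H3K9me3 −0.040 under scaling to a median log2 ratio of 0.

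The differences of changes for H3K27me3 and H3K9me3 were negative, and the H3K9me3 level of the last 100 kb was above 1, under every alternative run for them. Relative levels of H3K9me2 and H3K27me3 lie so near 1 that their side of it depends on the tiles chosen. Reads per library limit a median tile to 13 to 18 reads, so statements rest on sums. Intervals cover counting error only, and the spread between libraries of 1 genotype is unknown. What the filter on mapping quality removed from repeats was not tested, and copies of the ends of chromosomes 14 and 17 were not measured.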

Other observations

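Within the 2 Mb, windows of 100 kb spanned a wide range. Over 379 windows the H3K27me3 level, as the mean of both genotypes, ran from 0.178 to 4.13, that of H3K9me2 from 0.377 to 2.00 and that of H3K9me3 from 0.406 to 2.06. The highest H3K27me3 window holds Hoxc10 to Hoxc4, with 5185 and 3174 reads and levels of 4.64 and 3.62. The highest H3K9me3 windows were the last 100 kb of chromosome 13 (2.14 and 1.97) and of chromosome 2 (2.13 and 1.90). The lowest H3K27me3 change was that of the window of Cdkn1c and Phlda2 (3229 and 1869 reads, −0.44), and the highest that of a window on chromosome 4 with Ssu72 (239 and 265 reads, 0.50). H3K9me2 and H3K9me3 levels went together over the windows (rank correlation 0.685 in the Dicer KO against 0.692 in Dicer KO/Dnmt1 cKO ESCs), as did H3K9me2 and H3K27me3 (0.613 and 0.685) and, less closely, H3K27me3 and H3K9me3 (0.437 and 0.530), a description over windows that share their libraries and their base composition.

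At the border of the window, the last 20 kb inside 2 Mb (190 tiles) and the first 20 kb outside (188 tiles) had Dicer KO levels relative to the comparison of 0.946 and 0.979 (H3K9me2), 1.09 and 1.05 (H3K27me3) and 0.930 and 0.949 (H3K9me3). In the Dicer KO/Dnmt1 cKO they were 0.974 and 1.03, 0.994 and 0.988, and 0.911 and 0.923. No step was seen at 2 Mb, which is a set distance and not a feature of the data.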
